A study of Mus musculus with 9 samples.

Results

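The transcriptome of Tg-RKIP hearts was compared with that of non-transgenic FVB hearts across all genes. The comparison used 3 libraries of each group, which are 6 of the 9 libraries of the series. Transcript reads were added up by gene name, which gave 41710 names, and 15504 genes passed the expression filter and were tested. The Tg-RKIP mice carried an RKIP transgene in the FVB/N strain, and according to the study this transgene is active in the myocardium under the alpha-MHC promoter. The controls were FVB/N mice without a transgene. All mice were males of 8 months, kept on a standard diet, and RNA was taken from the whole frozen heart, so that atria, ventricles, vessels and adhering tissue were measured together. The mRNA was fragmented, primed with random hexamers and sequenced as single reads of 50 bases. A further 3 libraries, labelled Tg-GRK2 and from mice of the same strain, sex and age, entered the model so that all groups shared an estimate of the spread. In these, Grk2 itself did not pass the test against FVB (log2 fold change 0.05, edgeR adjusted p = 0.354), and they are therefore named by their label.

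RKIP, encoded by Pebp1, restrains the phosphorylation of MEK and ERK. After phosphorylation by protein kinase C it binds GRK2, the kinase that desensitises beta-adrenoceptors. The adult ventricle burns mainly fatty acids in densely packed mitochondria, relaxes by pumping calcium back into the sarcoplasmic reticulum, and returns to a partly fetal pattern of gene expression when it is chronically stressed.

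The transgene was visible in every Tg-RKIP library. Normalized reads, which are reads scaled by the TMM method to a common library size, were 240543, 236088 and 243438 for Pebp1 in Tg-RKIP hearts and 8465, 8679 and 8467 in FVB hearts. The 3 Tg-RKIP libraries lay close together and far above FVB. Much of this increase sat on a Pebp1 transcript of 779 bases, which counted 142005, 180280 and 138285 reads in Tg-RKIP against 5, 0 and 0 in FVB. Pbp2, a paralog of Pebp1 on chromosome 6, had 71283, 90196 and 70425 reads against 2, 1 and 3 in FVB. How reads shared by these similar genes were divided is not given in the sources used here, so that the Pbp2 values are uncertain. Defining genes of ventricular muscle were abundant in both groups, with Myl2, the ventricular regulatory light chain, at a level of 13709 TPM in FVB and 10316 TPM in Tg-RKIP hearts.

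Differences between the groups ran through most of the transcriptome. With an edgeR adjusted p under 0.05, 5709 genes were higher in Tg-RKIP hearts, or 36.8% of those tested, and 5751 genes were lower, or 37.1%. By at least 1 on the log2 scale, 1588 genes were higher (10.2%) and 949 were lower (6.12%). The groups did not overlap in normalized reads in 75.7% of the genes. These percentages are the background against which each group of genes below is to be read. The libraries held 25458108 to 33447654 reads on transcripts in Tg-RKIP and 26842772 to 30933785 reads in FVB. Between libraries of a group, the median squared difference was 1.37 to 1.56 times that expected from sampling noise in these groups. The biological coefficient of variation was 1.89% (Tg-RKIP) and 2.12% (FVB). The labels give each library a replicate number and name no animal, whereas the study describes its transcript data as taken from separate hearts. The p-values measure the spread between these libraries.

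Genes of high and of low abundance moved differently. Of the 93 genes above 1000 TPM in FVB hearts, 80 were lower and 10 higher in Tg-RKIP, with a median log2 fold change of -0.73. Of the 3045 genes under 1 TPM, 906 were higher and 225 lower by 1 log2 unit or more, with a median of 0.47. A gene this low in FVB can pass the filter through the group in which it is high, so that the counts in this class are a description. The 10 genes with most reads took 13.5 to 13.6% of all reads in Tg-RKIP libraries and 23.69 to 23.96% in FVB libraries. The scale therefore matters for small differences. Over all tested genes the median difference in log2 was 0.01 by TMM, 0.38 with library size only and 0.18 with library size without mitochondrial genes. With library size only, 9709 genes were higher and 2650 lower. Log2 fold changes given here are those of TMM-normalized reads, and a group whose median takes the other sign with library size only is named as such.

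**Figure D1:**
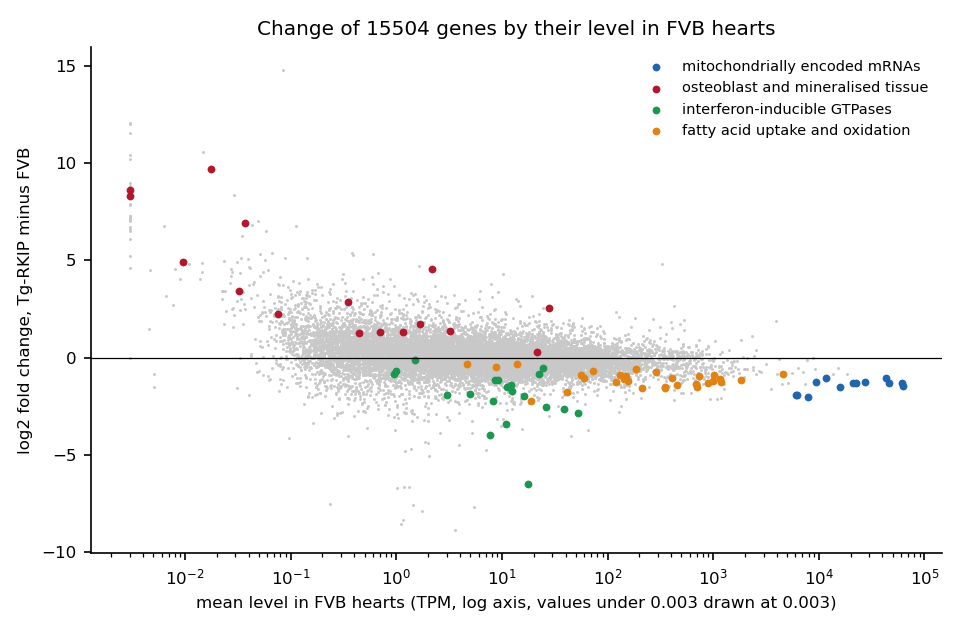
Log2 fold change of each tested gene, Tg-RKIP minus FVB, against its mean level in FVB hearts in TPM on a log axis. The 13 mitochondrially encoded mRNAs (blue) stand at the right end below 0, the fatty acid oxidation genes (orange) and interferon-inducible GTPase genes (green) lie below 0, and the genes of mineralised tissue (red) lie above 0 at low FVB levels.

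Long and short transcripts also differed in their direction. For genes whose transcripts were under 1000 bases on average, the median log2 fold change was 0.16 over 1442 genes, and for those of 6000 bases or more it was -0.35 over 1493 genes. Among the latter, 10.3% were lower and 4.55% higher by at least 1. The libraries labelled Tg-GRK2 had the opposite, smaller slope against the same FVB libraries, with medians of -0.09 and 0.07 in these length classes. Reads on transcripts annotated as retained introns were 2.73 to 2.89% of all reads in Tg-RKIP and 1.81 to 1.89% in FVB. The part that transcript length has in the results for the long channel and cytoskeletal genes below was not tested.

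Most genes of the mitochondrion were lower in Tg-RKIP hearts. All 13 mRNAs encoded by the mitochondrial genome were lower, each by at least 1 on the log2 scale, with a median of -1.31. Their summed share of the transcriptome was 18.1, 18.6 and 18.3% of TPM in the Tg-RKIP libraries and 34.30, 34.05 and 34.18% in FVB. TPM add up to the same total in each library, so a lower share of these mRNAs raises the shares of other genes. The shares given below for other groups are to be read with this limit. In a whole heart, fewer cells of a type and less RNA per cell cannot be told apart, and this holds for every group of genes described. The largest difference was in mt-Nd5, a core subunit of complex I, with 73438, 77474 and 73704 normalized reads in Tg-RKIP and 312046, 304996 and 307557 in FVB hearts. Its FVB libraries lay more than 3-fold above every Tg-RKIP library (log2 fold change -2.04, standard error 0.016, edgeR adjusted p = 5.72e-28). In the libraries labelled Tg-GRK2 the median of the 13 mRNAs against FVB was -0.03.

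The nuclear genes of the respiratory chain were lower in most cases. Of 37 complex I subunits, 36 were lower and none higher, with a median of -0.52. Of 28 subunits of complexes II to IV, 26 were lower and 2 higher, with a median of -0.56, and all 16 subunits of the ATP synthase were lower, with a median of -0.63. Ndufs1, the iron-sulfur subunit at the entry of electrons into complex I, had 11748, 11828 and 11854 normalized reads in Tg-RKIP and 27945, 28279 and 27927 in FVB hearts. The libraries of each group were nearly equal, and the groups stood apart by a log2 fold change of -1.25 (standard error 0.016, edgeR adjusted p = 2.15e-24). Sdha, the flavoprotein of complex II, and Uqcrfs1, the Rieske protein of complex III, fell by 1.16 and 1.12 on the log2 scale. Cox6a1 and Cox8a, which encode the broadly expressed forms of 2 complex IV subunits, were the exceptions, with log2 fold changes of 0.42 and 0.25. With library size only, the medians of these 3 groups stayed below 0, at -0.14, -0.18 and -0.26.

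Enzymes that feed the respiratory chain were lower throughout the list. All 19 enzymes of the TCA cycle were lower, 9 of them by at least 1, with a median log2 fold change of -0.99. Dld, the dehydrogenase subunit shared by the pyruvate and oxoglutarate complexes, had 6440.5, 6714 and 6536 normalized reads in Tg-RKIP and 18605, 18706 and 18522 in FVB hearts. Idh2, the mitochondrial NADP-linked isocitrate dehydrogenase, fell by 1.36. Of the 78 genes of the mitochondrial ribosome, 67 were lower and 4 higher, with a median of -0.35 that became 0.03 with library size only. Mrps6, a protein of its small subunit, was among the few that rose, with a log2 fold change of 0.87. Genes of mitochondrial import and cristae were mixed, with 19 of 28 lower, 4 higher and a median of -0.30 that turned to 0.08 with library size only.

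Regulators of mitochondrial content were mostly lower as well, while the share held by genes of mitochondrial shape depended on the scale. Of 17 regulators of mitochondrial biogenesis, 15 were lower and none higher, with a median of -0.55. Ppara, the nuclear receptor that drives fatty acid oxidation genes, had 182, 214 and 185 normalized reads in Tg-RKIP and 981, 988 and 1112 in FVB hearts. The highest Tg-RKIP library was more than 4-fold below the lowest FVB library, giving a log2 fold change of -2.39 (standard error 0.068, edgeR adjusted p = 2.87e-18). Ppargc1a, the PGC-1 alpha coactivator, had 1749, 1603 and 1667 normalized reads in Tg-RKIP and 4009.9, 3827 and 4038 in FVB hearts. Rxrg, a retinoid X receptor that pairs with such receptors, fell by 1.48 on the log2 scale. Of 16 genes of mitochondrial dynamics and mitophagy, 13 were lower and 3 higher, with a median of -0.49, or -0.11 with library size only. Their summed TPM share was higher in every Tg-RKIP library, at 0.189, 0.187 and 0.190% against 0.182, 0.179 and 0.178% in FVB. Their share of reads was lower in every Tg-RKIP library. Opa1, the GTPase that fuses inner membranes and holds cristae, had 3475, 3450.3 and 3331 normalized reads in Tg-RKIP and 8251, 8299.5 and 8427 in FVB hearts, with no overlap between the groups. Fis1 and Bnip3, which act in fission and mitophagy, rose by 0.31 and 0.30.

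**Figure D2:**
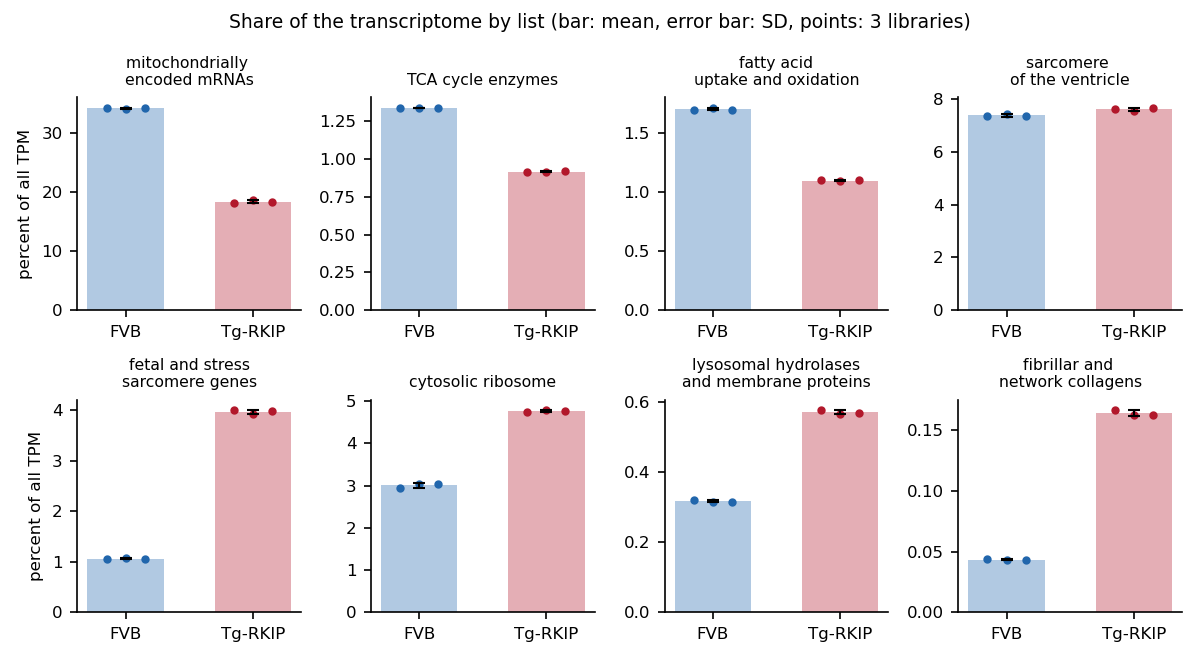
Share of all TPM held by 8 groups of genes in FVB and Tg-RKIP hearts, with bars for the mean, error bars for the SD and points for the 3 libraries of each group, every axis starting at 0. The mitochondrially encoded mRNAs fall from 34.2 to 18.3% of TPM, while the fetal and stress sarcomere genes rise from 1.06 to 3.96% and the collagens from 0.0433 to 0.164%.

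Fuel use of the heart was represented by genes that differed as a block. All 30 genes of fatty acid uptake and oxidation were lower, 18 of them by at least 1, and the median log2 fold change was -1.09, or -0.71 with library size only. Ucp3, a mitochondrial carrier whose transcript follows fatty acid load, had 231, 199.6 and 197 normalized reads in Tg-RKIP and 992, 992 and 909.6 in FVB hearts. Acot2, a mitochondrial acyl-CoA thioesterase, and Hadhb, the beta subunit of the trifunctional protein, fell by 1.77 and 1.13. Fabp3, the abundant fatty acid binding protein of muscle, fell by 0.82. All 23 genes of branched-chain amino acid and ketone oxidation were lower too, 11 by at least 1, with a median of -0.999. Bdh1, the hydroxybutyrate dehydrogenase that opens ketone oxidation, had 2105, 2092 and 2110.1 normalized reads in Tg-RKIP and 6991, 7465 and 7125 in FVB hearts. Ppm1k, the phosphatase that switches on the branched-chain keto acid dehydrogenase, fell by 1.74, and Oxct1, the CoA transferase of ketone use, by 1.06.

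Genes of pyruvate oxidation and glycogen were mostly lower, with 22 of 27 lower, 4 higher and a median log2 fold change of -0.45. Pdpr, the regulatory subunit of pyruvate dehydrogenase phosphatase, was among the larger decreases, with 364, 359 and 354 normalized reads in Tg-RKIP and 2791, 2882 and 3031 in FVB hearts. The FVB libraries were more than 7-fold above the Tg-RKIP libraries (log2 fold change -3.01, standard error 0.039, edgeR adjusted p = 2.15e-24). Pdk3, a kinase that switches the same dehydrogenase off, went the other way, with 262, 255 and 251 normalized reads in Tg-RKIP and 95.2, 93.5 and 103 in FVB hearts. Pdha1, the catalytic subunit of the dehydrogenase, fell by 1.33. Glycolysis as a list was split evenly, with 13 of 25 genes higher and 12 lower. Within it, Slc16a3, a monocarboxylate transporter that exports lactate, had 294, 279.6 and 288 normalized reads in Tg-RKIP and 47.6, 58.6 and 65.2 in FVB hearts, and Pfkfb1, a bifunctional enzyme that sets a key activator of glycolysis, had 82.8, 76.3 and 92.7 normalized reads in Tg-RKIP and 434, 444 and 451 in FVB hearts. Fbp2, the muscle fructose bisphosphatase, fell by 3.68 and was among the 20 largest decreases of all genes.

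Creatine kinase genes moved in opposite directions. Of 13 genes of the creatine and adenylate kinase shuttle, 5 were higher and 8 lower, with a median of -0.20 that became 0.18 with library size only. Ckmt1, the ubiquitous mitochondrial form, had 437, 443 and 454 normalized reads in Tg-RKIP and 51.1, 45.2 and 34.4 in FVB hearts. All Tg-RKIP libraries were above FVB, at a log2 fold change of 3.34 (standard error 0.13, edgeR adjusted p = 6.13e-16). Ckb, the brain form, rose by 1.16, while the muscle forms Ckmt2 and Ckm fell by 0.78 and 0.57. In level, Ckmt2 with 1376 TPM remained far above Ckmt1 with 21.1 TPM in Tg-RKIP hearts. Lipid synthesis was not lowered as a list, with 12 of 21 genes of fatty acid and triglyceride synthesis higher and 7 lower. Dgat2, which makes triglyceride, fell by 1.37, and Scd1, the stearoyl-CoA desaturase that the libraries labelled Tg-GRK2 also had higher (log2 fold change 1.72 against the same FVB libraries), rose by 1.40. Scd4, the desaturase isoform of heart, fell by 3.20. Of 24 genes of cholesterol synthesis and uptake, 16 were higher and 3 lower, with a median of 0.30.

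Genes of the contractile apparatus differed between lists and scales. Of 24 sarcomere genes of the ventricle, 18 were lower and 5 higher, with a median log2 fold change of -0.38, which was near 0 with library size only and 0.21 on the log2(TPM + 0.1) scale. Their summed TPM share was higher in every Tg-RKIP library, at 7.64, 7.56 and 7.68% in Tg-RKIP and 7.37, 7.45 and 7.37% in FVB. Their share of reads was lower in every Tg-RKIP library, at 6.70, 6.68 and 6.74% against 7.47, 7.60 and 7.48% in FVB. Myh6, the adult alpha myosin heavy chain, fell by 1.35, Cmya5, the protein myospryn of the costamere, by 1.73, and Myl2 by 0.83. The difference in Myh6 was smaller per transcript length, -0.19 on the log2(TPM + 0.1) scale. Myot and Tcap, proteins of the Z-disc, rose by 0.89 and 0.41. Of 15 fetal and stress sarcomere genes, 14 were higher, 9 by at least 1, with a median of 1.21. Acta1, the skeletal alpha actin of the fetal heart, had 81973, 80622 and 83729 normalized reads in Tg-RKIP and 13117, 12936 and 12817 in FVB hearts. Its Tg-RKIP libraries were more than 6-fold above FVB, the log2 fold change being 2.66 (standard error 0.019, edgeR adjusted p = 1.26e-28). Ankrd1, a stretch-responsive ankyrin repeat protein, rose by 1.12. The summed TPM share of this list was 3.99, 3.91 and 3.97% in Tg-RKIP and 1.05, 1.07 and 1.05% in FVB hearts. Among atrial markers, 5 of 10 were higher and 5 lower, with Myl4 at 0.83 and Myl7 at -1.28, so that the atrial genes did not move together. The summed TPM share of the atrial list was nevertheless higher in every Tg-RKIP library, at 2.30, 2.24 and 2.29% against 0.610, 0.624 and 0.618% in FVB.

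Most calcium handling genes were lower. Of 24 calcium handling genes, 17 were lower and 7 higher, with a median log2 fold change of -0.47, or -0.09 with library size only. Ryr2, the calcium release channel, had 11308, 11455 and 11359 normalized reads in Tg-RKIP and 48469.6, 47294 and 47393 in FVB hearts. Every Tg-RKIP library was more than 4-fold below every FVB library (log2 fold change -2.07, standard error 0.017, edgeR adjusted p = 1.12e-27). Atp2a2, the SERCA2 calcium pump, and Pln, its inhibitor phospholamban, fell by nearly the same amount, 1.33 and 1.34. Bin1, which shapes T-tubules, rose by 1.63, and Casq1, the calsequestrin of fast skeletal muscle, rose by 0.89.

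Most channel genes were lower. Of 26 potassium channel genes of the working myocardium, 21 were lower, 10 of them by at least 1, and 2 were higher, with a median of -0.74. Kcnv2, a silent subunit that modifies Kv2 channels, had 36.7, 39.6 and 36.7 normalized reads in Tg-RKIP and 521, 560.0 and 619 in FVB hearts (log2 fold change -3.90, standard error 0.11, edgeR adjusted p = 9.93e-19). The lowest FVB library was more than 10-fold above the highest Tg-RKIP library. Kcnd2, a pore subunit of the transient outward current, fell by 1.87, and Kcnip2, its accessory subunit, by 0.51. Kcne4 was the main exception and rose by 1.36. Among 17 sodium and pacemaker channel genes, 11 were lower and 5 higher. Cacna1g, a T-type calcium channel, fell by 1.98, and Hcn4, the pacemaker channel, had 94.1, 85.1 and 93.6 normalized reads in Tg-RKIP and 426, 401 and 416 in FVB hearts.

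These channel genes were long, with a median length of 6118 bases in the sodium and pacemaker list and 3343 bases in the potassium list, against 2721 bases over all tested genes. Genes of the intercalated disc and the dystrophin complex were lower in 14 of 19 and 18 of 24 cases, with medians of -0.38 and -0.43 that were close to 0 with library size only (-0.01 and -0.05). The summed shares of both lists, in reads and in TPM, were nevertheless higher in every Tg-RKIP library. Mean TPM shares were 0.409% in Tg-RKIP and 0.261% in FVB for the disc, and 0.201 and 0.175% for the dystrophin list. Dsg2, the desmoglein of the cardiac desmosome, had 621, 649.6 and 626 normalized reads in Tg-RKIP and 2789, 2630.5 and 2698 in FVB hearts. Gja5, the connexin of atrium and conduction tissue, fell by 1.33, and Dmd, dystrophin, by 1.32 (-0.31 on the log2(TPM + 0.1) scale), while Des, desmin, and Lmna, lamin A/C, rose by 0.90 and 0.82. Of 21 cardiac transcription factors, 14 were lower and 4 higher, with a median of -0.34 that became 0.04 with library size only. Myocd, the coactivator myocardin, fell by 1.498 and Nkx2-5, a core factor of heart identity, rose by 0.46. Adra1a, an alpha-1 adrenoceptor of myocytes, had 97.8, 104 and 84.0 normalized reads in Tg-RKIP and 811, 885 and 846 in FVB hearts.

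**Figure D3:**
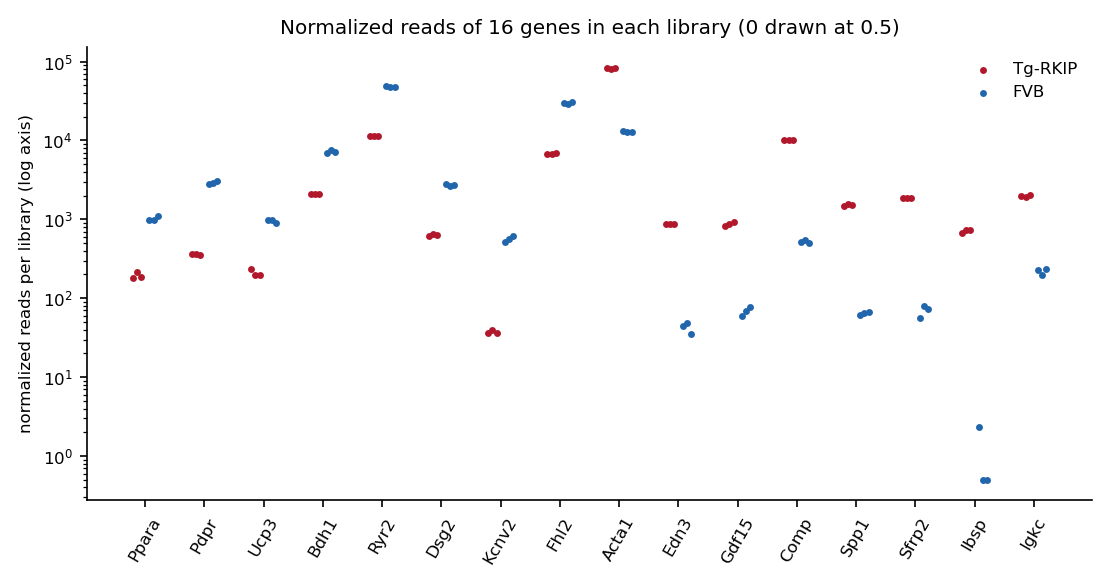
Normalized reads of 16 genes in each of the 3 Tg-RKIP (red) and 3 FVB (blue) libraries on a log axis. The libraries of a group sit nearly on top of each other, and the groups do not overlap in any of these genes.

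Signals linked to cardiac hypertrophy did not move in a single direction. Of 26 genes of calcineurin and hypertrophy signalling, 16 were lower and 7 higher, with a median log2 fold change of -0.28 that became 0.10 with library size only. Rcan1, a target and feedback inhibitor of calcineurin, rose by 1.45, and Fhl1, a stretch-linked LIM protein, rose by 1.00. Fhl2, the related LIM protein of the adult heart, had 6710.4, 6690.0 and 6938 normalized reads in Tg-RKIP and 29952, 29276 and 30570.3 in FVB hearts. Camk2b, a calcium and calmodulin-dependent kinase, fell by 2.10. Among genes of the renin-angiotensin, endothelin and natriuretic systems, 10 of 22 were higher and 10 lower, with a median of -0.01 that became 0.36 with library size only. Their summed TPM share was nevertheless higher in every Tg-RKIP library, at 2.15, 2.10 and 2.13% against 0.461, 0.472 and 0.472% in FVB. Edn3, endothelin-3, had 872, 872 and 869 normalized reads in Tg-RKIP and 44.1, 48.3 and 35.6 in FVB hearts. This was the largest increase of that list (log2 fold change 4.34, standard error 0.086, edgeR adjusted p = 3.92e-21). Corin, the protease that activates natriuretic peptides, fell by 1.17, and Mme, the neprilysin that degrades them, by 1.63. Gdf15, a circulating stress cytokine, had 835, 882 and 936 normalized reads in Tg-RKIP and 59.2, 68.8 and 78.3 in FVB hearts.

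The RAF-MEK-ERK cascade itself changed little apart from Pebp1. Of its 20 tested genes 10 were higher and 7 lower, and leaving the transgene aside none differed by 1 or more on the log2 scale. Mapk3, the gene of ERK1, had a log2 fold change of 0.73. Genes that report and dampen ERK activity were mostly higher, with 16 of 21 higher, 3 lower and a median of 0.49. Dusp4, a nuclear phosphatase of ERK, rose by 2.11, Etv5, an ETS factor, by 1.57, and Phlda1, an ERK-induced gene, by 1.42. Of 25 immediate early genes, 13 were higher and 6 lower, with the growth regulator Myc at 1.14 and the stress factor Atf3 at -1.08.

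Genes of the extracellular matrix were mostly higher, with the basement membrane as an exception. Of 21 fibrillar and network collagens, 20 were higher, 14 by at least 1, and the median log2 fold change was 1.29. Their share of TPM was 0.167, 0.163 and 0.163% in Tg-RKIP and 0.0437, 0.0430 and 0.0431% in FVB hearts. In the libraries labelled Tg-GRK2 the median of the same genes against the same FVB libraries was 0.45. Enzymes that process and crosslink collagen followed, with 22 of 24 higher and a median of 0.84. Lox, the lysyl oxidase that crosslinks collagen, rose by 2.34, and P4ha3, a collagen prolyl hydroxylase subunit, by 3.83. Adamts3, a procollagen peptidase, was the exception and fell by 2.04. Of 31 matricellular and glycoprotein genes, 26 were higher, 24 of these by at least 1, with a median of 1.67.

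Single matrix genes reached large folds. Comp, the cartilage oligomeric matrix protein that bridges collagen fibrils, had 10217, 10007 and 10216 normalized reads in Tg-RKIP and 523, 539.5 and 499 in FVB hearts. The Tg-RKIP libraries were more than 18-fold above FVB (log2 fold change 4.28, standard error 0.029, edgeR adjusted p = 7.24e-29). Spp1, osteopontin, had 1498, 1562 and 1501 normalized reads in Tg-RKIP and 61.5, 65.8 and 66.4 in FVB hearts. Cthrc1, a marker of activated fibroblasts, rose by 3.26, Ltbp2, a latent TGF-beta binding protein of microfibrils, by 3.19, and Bgn, biglycan, by 2.02. The inhibitor Timp1 rose by 2.78, and 20 of 28 matrix proteases and inhibitors were higher. The basement membrane did not share this direction, with 8 of 21 genes higher and 10 lower and a median of -0.12 that became 0.25 with library size only. There Lama2, the laminin chain of muscle, fell by 1.02, and Itgb5, an integrin subunit, rose by 1.497.

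Genes of the TGF-beta, WNT and IGF pathways were mostly higher. Of 36 TGF-beta pathway genes, 27 were higher, 13 by at least 1, and 6 lower, with a median log2 fold change of 0.94. Of 31 WNT pathway genes, 19 were higher and 7 lower, with a median of 0.54. Sfrp2, a secreted frizzled-related protein made by fibroblasts, had 1859.6, 1855 and 1871 normalized reads in Tg-RKIP and 55.7, 79.1 and 73.5 in FVB hearts, the largest increase of that list (log2 fold change 4.73, standard error 0.065, edgeR adjusted p = 7.05e-24). Sfrp5, another member of that family, fell by 1.22, and Wif1, a WNT inhibitor, by 0.94. Among the IGF genes, 14 of 21 were higher, with Igfbp2 at 3.02 and Igfbp7 at 1.58. Notch genes were split, with 5 of 18 higher and 5 lower, and their median of -0.02 became 0.36 with library size only.

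Defining genes of cartilage and bone were read in Tg-RKIP hearts and were at or near 0 reads in FVB hearts. Col2a1, the fibrillar collagen of cartilage, counted 2593, 3291 and 2563 reads in Tg-RKIP against 0, 1 and 3 in FVB. Ibsp, the bone sialoprotein of mineralising matrix, had 720, 1010 and 756 reads against 2, 0 and 0. Sp7, the osteoblast factor osterix, had 57, 62 and 51 reads against 0 in each FVB library. Taking 3 reads in each FVB library as the most that a count of 0 allows, Sp7 was at least 14.7-fold higher, and other folds against libraries at 0 are computed in the same way. All 3 Tg-RKIP libraries carried these transcripts at like levels. Col10a1, the collagen of hypertrophic chondrocytes, had 734, 869 and 678 reads against 0, 1 and 4. Osteocalcin reads are divided between the near-identical genes Bglap and Bglap2, whose single values are uncertain. Bglap had 51, 77 and 78 reads against 0, 1 and 0, and Bglap2 had 44, 59 and 35 reads against 0 in each FVB library. Acan, aggrecan, the large proteoglycan of cartilage, rose by 5.01 on the log2 scale.

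As lists, 12 of 14 tested chondrocyte genes were higher, 11 by at least 1, and 16 of 16 tested genes of osteoblasts and mineralised tissue were higher, 15 by at least 1. A further 5 of 19 chondrocyte genes and 1 of 17 mineralised tissue genes did not pass the filter on low counts. The filter passes a gene through the group in which it is high, so that these counts are a description. The share of TPM held by the chondrocyte list was 0.0402, 0.0393 and 0.0400% in Tg-RKIP and 0.00230, 0.00246 and 0.00224% in FVB hearts. This list includes Comp, which is also in the list of activated fibroblasts and had more reads in Tg-RKIP than Col2a1. The share is therefore not one of cartilage genes alone. The mineralised tissue list includes Col1a1, which is also in the fibroblast list, and Spp1, which is also in the macrophage list. Its count is likewise not one of bone genes alone. In the libraries labelled Tg-GRK2 the medians of the chondrocyte and mineralised tissue lists against FVB were -0.04 and -0.05. Fgf23, the phosphate-lowering hormone of bone, had 118, 138 and 112 normalized reads in Tg-RKIP and 3.48, 2.06 and 4.74 in FVB hearts, and Dmp1, a matrix protein of osteocytes, had 24, 32 and 17 reads against 2, 1 and 2. Alpl, the tissue-nonspecific alkaline phosphatase, differed little, with a log2 fold change of 0.26.

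**Figure D4:**
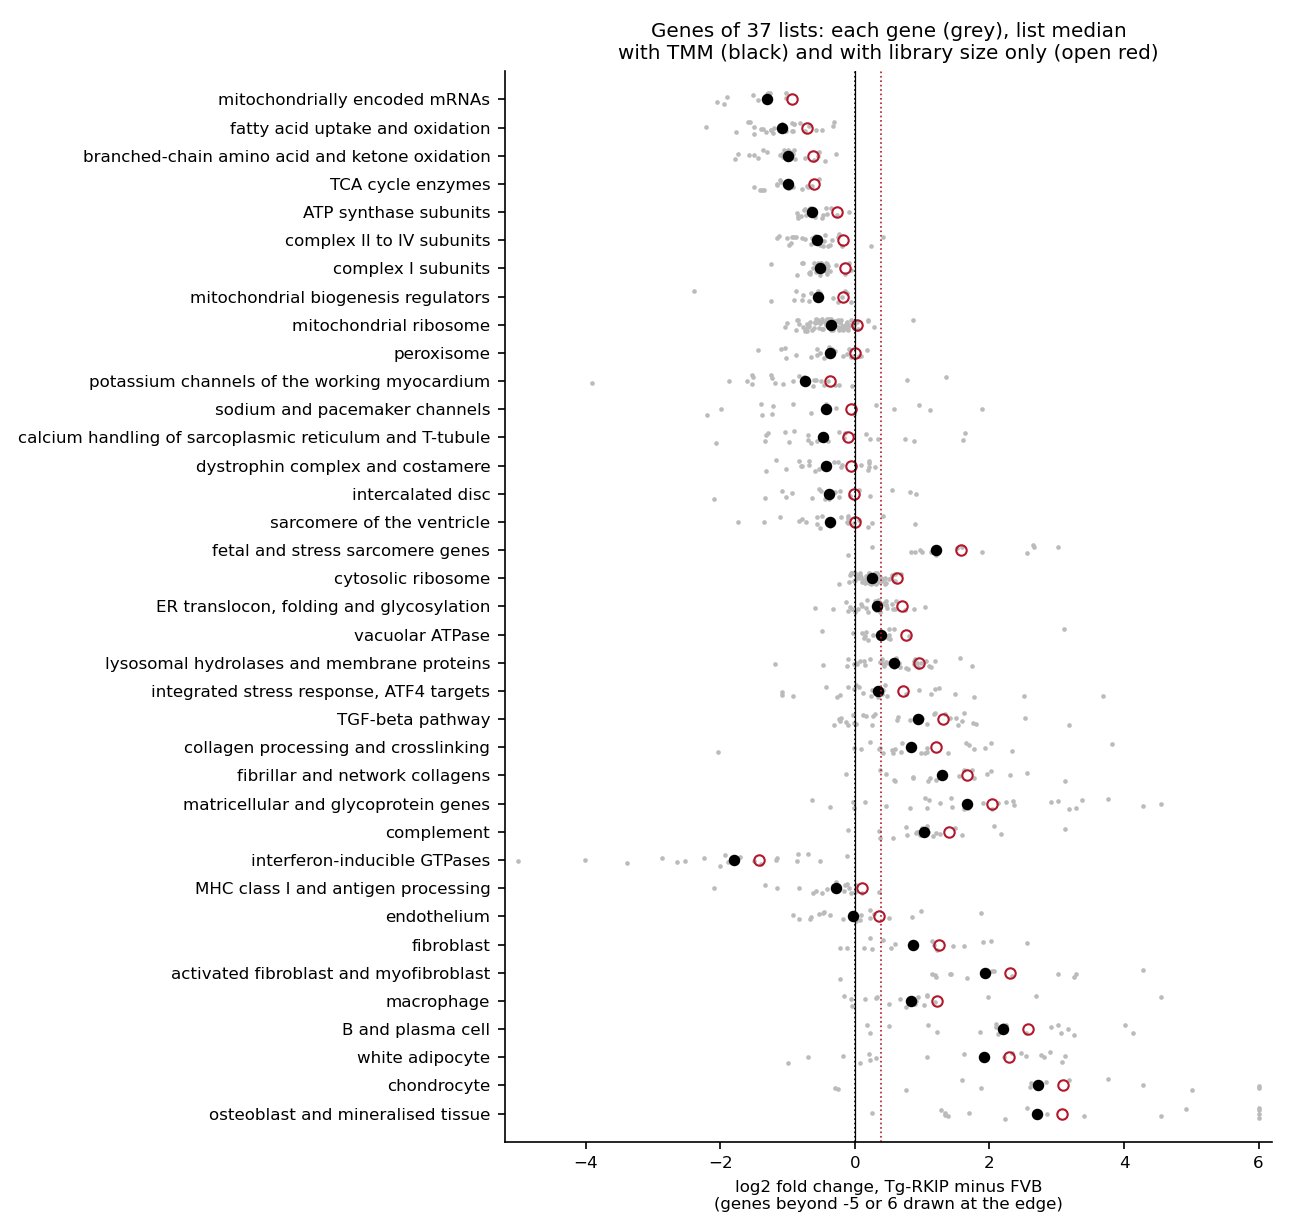
Log2 fold change, Tg-RKIP minus FVB, of each gene (grey) in 37 groups, with the median of the group by TMM (black) and by library size only (open red), and dotted lines for the medians of all tested genes. The medians of fatty acid oxidation, the TCA cycle and the respiratory chain lie below 0 on both scales, those of collagens, complement, chondrocyte and mineralised tissue genes lie above 0, and the adult sarcomere, intercalated disc and dystrophin groups lie near 0 by library size only.

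Markers of the cell types of the heart moved with these groups. Of 10 ventricular cardiomyocyte genes, 8 were lower and 1 higher, with a median log2 fold change of -0.58. Of 16 fibroblast genes, 14 were higher and 2 lower, with a median of 0.87, and of 15 genes of activated fibroblasts 14 were higher, each by at least 1, with a median of 1.93. The general fibroblast genes Pdgfra and Dpt rose by 0.26 and 0.22, whereas Postn, periostin, rose by 1.67 and Tnc, tenascin C, by 3.29. Epicardial and mesothelial genes were higher in 12 of 14 cases, with a median of 0.96, among them Krt18, a keratin of simple epithelia, at 2.88 and Wt1, the epicardial factor, at 0.65. Smooth muscle genes were higher in 9 of 13 cases and lower in 3, with Tagln at 1.31 and Cnn1 at 1.32, but Myh11, the smooth muscle myosin, fell by 0.51, a call that limma on log2(TPM + 0.1) did not make (-0.10). The others that fell were Myocd and Pln, which myocytes also express. The summed TPM share of the smooth muscle list was 0.488, 0.490 and 0.489% in Tg-RKIP and 0.566, 0.554 and 0.561% in FVB.

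Markers of vessels were described in several lists, between which no difference was tested. The general endothelial list was split, with 9 of 20 genes higher and 9 lower and a median of -0.02 that became 0.35 with library size only. Kdr, the VEGF receptor of capillaries, and Cd36, the fatty acid transporter of capillaries and myocytes, fell by 0.83 and 0.91. Plvap, the diaphragm protein of fenestrated vessels, rose by 1.87, and Vwf, von Willebrand factor, by 0.99. Of 14 arterial and venous genes, 8 were higher and 2 lower, with Selp, the P-selectin of activated veins, at 3.22, and of 9 endocardial genes 6 were higher and none lower, with Cytl1 at 1.96. Of 11 pericyte genes 4 were higher and 5 lower, and Abcc9, the SUR2 subunit shared with myocyte potassium channels, fell by 1.53.

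Most tested markers of immune cells were higher. Of 20 macrophage genes, 17 were higher and 1 lower, with a median log2 fold change of 0.84. Cd68, a lysosomal protein of macrophages, rose by 1.20, C1qa, which these cells secrete, by 0.94, and Gpnmb, a marker of lipid-laden and scar macrophages, by 2.70. Of 17 monocyte and neutrophil genes, 6 did not pass the filter on low counts, which passes a gene through the group in which it is high. The summed TPM share of that list was 0.00521, 0.00498 and 0.00459% in Tg-RKIP and 0.00131, 0.00132 and 0.00144% in FVB. Of 19 genes of B and plasma cells, 18 were higher, 16 by at least 1, with a median of 2.20. Igkc, the constant region of the kappa light chain, had 1963, 1923 and 2021 normalized reads in Tg-RKIP and 229, 195 and 234 in FVB hearts (log2 fold change 3.17, standard error 0.051, edgeR adjusted p = 9.51e-23). Each Tg-RKIP library was more than 8-fold above the highest FVB library. Igha, the IgA heavy chain, rose by 4.14, and Jchain, which joins secreted antibodies, by 3.25.

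T and natural killer cell genes were low in both groups, with 0.00232, 0.00237 and 0.00208% of TPM in Tg-RKIP and 0.000932, 0.000736 and 0.000888% in FVB, and 5 of 20 did not pass the filter. The complement list was higher in 22 of 23 cases, 12 by at least 1, with a median of 1.03, and Clu, clusterin, rose by 1.21. Cfd, adipsin, which is made chiefly by adipocytes, rose by 3.12. Of 30 chemokines and cytokines, 24 were higher and 3 lower, with Ccl8, a monocyte chemokine, at 2.16, Ccl21a, a chemokine of lymphatic vessels, at 1.60 and Ccl11, eotaxin, at -1.31. Genes of MHC class II were higher in 9 of 13 cases and lower in none, with a median of 0.48, and Ctss, the protease that trims their invariant chain, rose by 1.11. In the libraries labelled Tg-GRK2 this class II median against FVB was -1.20.

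Marker genes of tissues that may adhere to the heart were also measured. Of 18 white adipocyte genes, 15 were higher, 11 by at least 1, with a median of 1.92, yet the summed TPM share of the list was 0.304 to 0.306% in both groups. Its share of reads was lower in Tg-RKIP, at 0.507, 0.509 and 0.512% against 0.647, 0.644 and 0.644% in FVB. Lpl and Slc2a4, members that myocytes also express at high levels, fell by 0.99 and 0.70. Lep, leptin, rose by 2.22. Erythroid genes were higher in 7 of 10 cases, with the alpha globin Hba-a1 at 1.97 and the beta globin Hbb-bs at 1.60. The libraries labelled Tg-GRK2 had 1.19 for Hba-a1 against the same FVB libraries. Of 14 nerve and Schwann cell genes, 7 were higher and 4 lower. Of 18 skeletal muscle genes, which include Acta1, 11 passed the filter, and of these 6 were higher and 2 lower. Their summed TPM share was 0.597, 0.583 and 0.593% in Tg-RKIP and 0.278, 0.280 and 0.278% in FVB. Actn3, the actinin of fast fibres, rose by 0.92, and the fast myosins Myh1 and Myh2 did not pass the filter.

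Airway secretory genes held 0.0306, 0.0298 and 0.0311% of TPM in Tg-RKIP, 0.0123, 0.0117 and 0.0120% in FVB and 0.0360 to 0.0367% in the libraries labelled Tg-GRK2. Of 19 such genes 16 passed the filter, some through the groups in which they are high, and 14 of these were higher in Tg-RKIP. Their median of 3.96 became 1.33 on the log2(TPM + 1) scale. Scgb3a2, a secretoglobin of the airway, was higher by at least 16.9-fold in Tg-RKIP, and Bpifa1, a secreted protein of upper airway lining, at least 159-fold. Of the alveolar list, 4 of 14 genes passed the filter, and Sftpc, the surfactant protein of alveolar cells, had 0, 0 and 2 reads in Tg-RKIP and 0 in each FVB library. Genes of ciliated airway cells passed the filter in 7 of 15 cases, with 2 higher and 2 lower, and Foxj1, their defining factor, did not pass it. The part of adhering tissue in these results, and in those of fat, cartilage and bone, was not tested.

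Interferon-inducible GTPases, which attack the vacuoles of intracellular pathogens, were lower in Tg-RKIP hearts. Of 20 tested genes of this list, 19 were lower, 15 by at least 1, and none was higher, with a median log2 fold change of -1.79, or -1.42 with library size only. Their promoters carry sequence elements through which interferon signals act, and 6 of them are printed here to show what the group shares. Promoter sequences are those of RefSeq on the GRCm38.p6 build, given in the direction of the gene, with capitals marking the core of the interferon-stimulated response element (TTTCNNTTT on either strand).
Gbp2 (chr3:142620574-142620642, plus strand): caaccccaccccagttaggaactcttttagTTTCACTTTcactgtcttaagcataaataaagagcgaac
Gbp3 (chr3:142559975-142560043, plus strand): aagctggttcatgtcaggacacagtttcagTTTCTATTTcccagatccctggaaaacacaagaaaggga
Gbp7 (chr3:142530253-142530321, plus strand): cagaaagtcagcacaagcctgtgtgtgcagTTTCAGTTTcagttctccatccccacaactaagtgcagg
Igtp (chr11:58199493-58199561, plus strand): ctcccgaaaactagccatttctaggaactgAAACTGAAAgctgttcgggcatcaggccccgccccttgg
Irgm1 (chr11:48871405-48871473, minus strand): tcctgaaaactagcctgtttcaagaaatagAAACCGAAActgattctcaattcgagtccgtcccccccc
Tgtp1 (chr11:48992284-48992352, minus strand): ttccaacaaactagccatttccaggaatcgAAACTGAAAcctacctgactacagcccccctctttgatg
This element lay upstream of the start of each gene, from 23 bases in Irgm1 to 76 bases in Tgtp1. All 10 genes of the GTPase list with a promoter in the table held this core, against 9.76% of the promoters of 11693 tested genes and 12.1% of all 27025 promoters. The gamma-activated site TTCNNNGAA was held by 6 of the 10 and by 8.34% of the promoters of tested genes. A match is a description of the letters and not a measured binding site.

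Levels of the GTPase genes differed between libraries of different groups far more than within them. Iigp1, an immunity-related GTPase, had 467, 454 and 429.5 normalized reads in Tg-RKIP and 3256, 3262 and 3309.7 in FVB hearts. Igtp, of the same family, had 254, 266 and 277 normalized reads in Tg-RKIP and 1630.4, 1669.8 and 1661 in FVB hearts. In both, every Tg-RKIP library lay more than 4-fold below every FVB library, with log2 fold changes of -2.86 and -2.64. Of the other genes whose promoters are printed, Gbp2 was at -0.52, Gbp3 at -1.15, Gbp7 at -1.504 and Irgm1 at -0.86. Of all 11 tested Gbp genes, 8 were lower by at least 1. F830016B08Rik, a further gene of the family, had 14.1, 9.54 and 18.3 normalized reads in Tg-RKIP and 1255, 1248 and 1225 in FVB hearts, a log2 fold change of -6.50. Tgtp1 had 58.3, 6.61 and 25.1 normalized reads in Tg-RKIP and 425, 459 and 478 in FVB hearts and overlaps in sequence with Tgtp2, so that the split of reads between both is uncertain. Read division is equally uncertain among the clustered Gbp genes.

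The libraries labelled Tg-GRK2 were lower for these GTPases as well, with a list median of -0.99 against the same FVB libraries. For Iigp1 the direct difference between Tg-RKIP and those libraries was -0.57 on the log2 scale (edgeR adjusted p = 2.59e-10), and for Igtp it was -0.41 (edgeR adjusted p = 1.72e-06). Nlrc5, the activator of MHC class I genes, fell by 2.10 in Tg-RKIP. On the log2(TPM + 0.1) scale Nlrc5 was at -0.76 and did not pass the limma test. MHC class I and antigen processing genes were lower in 14 of 19 cases, with a median of -0.27 that became 0.10 with library size only. The list of other interferon response genes did not follow as a whole, with 13 of 35 tested genes higher and 10 lower. Of 27 listed genes with a promoter, 19 held the same core, among them Oas1g and Ifi44l, which were not tested. This list also includes Ifi47, itself an interferon-inducible GTPase, so that it is not free of such genes. Ifi27l2a, the most abundant gene of the list, rose by 1.62.

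**Figure D5:**
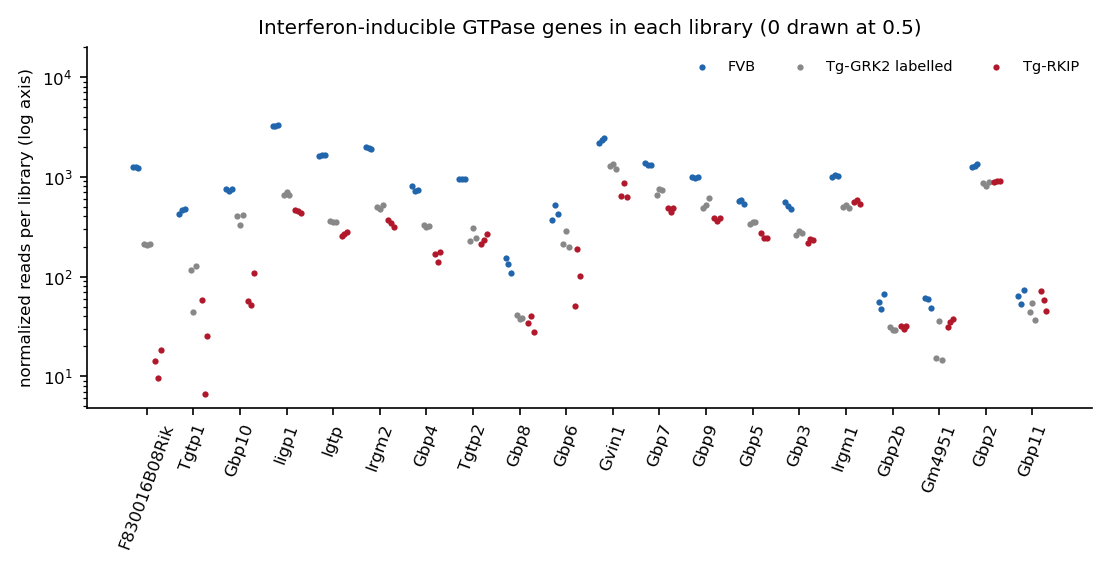
Normalized reads of the 20 tested genes of the interferon-inducible GTPase list in each library on a log axis, for FVB (blue), libraries labelled Tg-GRK2 (grey) and Tg-RKIP (red). In 19 of the 20 genes the Tg-RKIP libraries lie below the FVB libraries, and the libraries labelled Tg-GRK2 lie below FVB as well in most of the genes.

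Lysosomal genes and genes of the ER and the ribosome were mostly higher. Of 37 lysosomal genes, 29 were higher and 4 lower, with a median log2 fold change of 0.58. Ctsk, a collagen-cleaving cathepsin, rose by 1.74 and Ctsz by 1.56, while Npc1, the cholesterol exporter of the lysosome, fell by 1.18. Of 17 subunits of the vacuolar ATPase, which acidifies lysosomes, 15 were higher and 1 lower. Of 32 genes of the ER translocon, folding and glycosylation, 25 were higher and 4 lower, with a median of 0.33. There Fkbp10, a chaperone of procollagen, rose by 1.05, and Canx, calnexin, fell by 0.59. Autophagy genes were split, with 11 of 31 higher and 17 lower and a median of -0.11 that became 0.27 with library size only, and Sqstm1, a receptor for autophagic cargo, rose by 0.86. Of 78 genes of the cytosolic ribosome, 66 were higher and 2 lower, with a median of 0.25, and their TPM share was 4.75, 4.80 and 4.77% in Tg-RKIP and 2.94, 3.05 and 3.05% in FVB. In the libraries labelled Tg-GRK2 the ribosome median against FVB was -0.19.

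Stress responses differed by type. Of 27 targets of ATF4, the transcription factor of the integrated stress response, 17 were higher, 7 by at least 1, and 6 were lower, with a median log2 fold change of 0.34. Of 23 genes of the unfolded protein response of the ER, 16 were higher and 4 lower, none by at least 1. Stretches of 4 ATF4 target promoters are printed to show the C/EBP-ATF response element that they share, with the letters TGATGNAA on either strand in capitals.
Asns (chr6:7693195-7693262, minus strand): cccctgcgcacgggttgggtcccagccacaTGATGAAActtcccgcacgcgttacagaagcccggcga
Chac1 (chr2:119351019-119351086, plus strand): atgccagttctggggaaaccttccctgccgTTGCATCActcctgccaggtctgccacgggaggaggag
Nupr1 (chr7:126625543-126625610, minus strand): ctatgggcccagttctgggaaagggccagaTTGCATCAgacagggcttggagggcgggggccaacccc
Trib3 (chr2:152344011-152344076, minus strand): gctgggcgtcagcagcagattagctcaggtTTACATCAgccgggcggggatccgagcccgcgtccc
The element lay 23 bases upstream of the start in Asns and 193 bases upstream in Chac1, and in Trib3 it lay 14 bases past the start. It was found in 10 of 23 ATF4 target promoters, or 43.5%, against 2.84% of the promoters of tested genes and 4.51% of all promoters. Nupr1, a small chromatin-associated stress protein, had 671, 638 and 667 normalized reads in Tg-RKIP and 106, 114 and 126 in FVB hearts. The groups stood apart by a log2 fold change of 2.51 (standard error 0.075, edgeR adjusted p = 6.30e-18). Chac1, which degrades glutathione, rose by 1.77, Asns, asparagine synthetase, by 1.49, and Trib3, a pseudokinase that feeds back on ATF4, by 1.26. Atf3 holds the element as well and fell by 1.08. Of 18 genes of serine, glycine and one-carbon synthesis, 9 were higher, 5 by at least 1, and 4 were lower, with Phgdh, which opens serine synthesis, at 1.51 and Aldh1l2, a mitochondrial folate enzyme, at -1.57.

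Antioxidant genes were described in a pair of lists, between which no difference was tested. Of 27 targets of NRF2, 17 were higher and 4 lower, with a median of 0.29, and Gpx3, the secreted glutathione peroxidase, rose by 1.81. Of 21 antioxidant enzymes outside that list, 8 were higher and 11 lower, with a median of -0.13 that became 0.25 with library size only. Among these, Sod3, the extracellular superoxide dismutase, rose by 1.35 and Sod2, the mitochondrial form, fell by 0.97. Of 21 p53 targets, 12 were higher and 6 lower. Cdkn1a, an inhibitor of the cell cycle, rose by 1.62 and Phlda3, an AKT repressor, by 2.00, whereas Ccng1, the most abundant of the list, fell by 0.88. Of 35 cell cycle genes, 24 were higher and 1 lower, with a median of 0.50. The gene that fell was Cenpf, a kinetochore protein, at -2.27, but on the log2(TPM + 0.1) scale it was at -0.64 and did not pass the limma test. Of 30 genes of cell death 17 were higher and 8 lower, with Bid, which links death receptors to mitochondria, at 1.21 and Bcl2, which blocks apoptosis, at 0.80.

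Among the 20 largest decreases of all genes was Sbk3, a kinase gene of muscle, with 164, 181 and 177 normalized reads in Tg-RKIP and 2876, 2816 and 2803 in FVB hearts. It was lower in every Tg-RKIP library by more than 10-fold. Clcn1, the chloride channel of skeletal muscle, fell by 4.33 and Nt5c1a, the AMP nucleotidase of muscle, by 3.18. Tmprss13, a membrane serine protease, fell by 5.08. D830005E20Rik fell by 3.52 and lies antisense to Trdn, the gene of triadin, from which its reads cannot be separated as the strand of counting is not given. Among the 20 largest increases, Cplx3, a complexin of synapses, had 156, 193 and 135 reads against 2, 1 and 0, Cdhr5, a cadherin of epithelial brush borders, at least 44.5-fold higher, and Syt13, a synaptotagmin, rose by 5.31. Gm26377, Gm44709 and Gm43126, which overlap Eef1a1, Supt5 and Ccnd2, are uncertain for the same reason.

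Genes grouped by the stem of their symbol, without a list chosen by hand, were described in the same way. Of 237 families with at least 8 tested genes, the highest medians were those of the kappa and heavy chain variable genes, Igkv with 4.33 over 23 genes and Ighv with 3.78 over 11 genes, followed by the collagens, Col, with 1.29 over 39 genes. Only genes past the filter are counted, and the filter passes a gene through the group in which it is high. The medians of the variable genes are therefore a description. The lowest medians were those of Gbp with -1.40 over 11 genes, Pcdhga with -0.95 over 12 genes and the inward rectifier channels Kcnj with -0.92 over 11 genes. The Pcdhga genes, a cluster of protocadherins, share exons, so that reads cannot be assigned firmly to a member. Along the chromosomes, 15 runs of at least 5 neighbouring tested genes were all called in a single direction by at least 1. Of these, 4 held immunoglobulin genes, to which the same limit of the filter applies, and 2 lay on the mitochondrial genome. Further runs held Gbp genes and Gm43302 on chromosome 5 (6 genes in all, median -1.98), and Tgtp genes with neighbours such as Psme2b on chromosome 11 (6 genes in all, median -2.55). A run on chromosome 3 held S100a genes and Lor (5 genes in all, median 2.00). Another on chromosome 15 held keratin genes and Gm35853 (5 genes in all, median 1.72). A pair of runs on chromosome 2 held zinc finger genes of closely similar sequence, with medians of -1.86 in both, whose reads may be divided between them.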

How the data were processed

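The mRNA of mouse hearts was sequenced as single reads of 50 bases. The authors deposited read counts per transcript for 127558 transcripts and, per library, TPM values (reads per transcript length, scaled to a common total). The submitters' processing notes name GRCm39. The aligner and the counting tool are not given in the sources used here. TPM recomputed from the deposited counts and lengths differed from the deposited TPM by at most 5.50e-06. No value column lay outside the 9 libraries.

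Counts were summed by gene name. Genes were kept with filterByExpr and tested with edgeR 4.0.16 in R 4.3.3 (TMM, glmQLFit and glmQLFTest, a mean per group over 9 libraries), with Benjamini-Hochberg adjustment over 15504 genes and a threshold of 0.05. The script was tested on simulated data. Alternatives used DESeq2 1.42.0, limma 3.58.1 on log2(TPM + 0.1) and log2(TPM + 1), glmTreat against a 1.5-fold change, other scalings and filters, the 6 libraries alone, a replicate block, and each library left out. A count of 0 was taken to allow 3 reads per library, which covers counting error only.

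Named genes were Pebp1 and Pbp2, and the 20 largest and 20 smallest log2 fold changes among called genes with at least 100 normalized reads in the higher group and no overlap. In each list up to 6 members were named (the 2 largest, the 2 smallest and the 2 most abundant), with the first 3 markers of each cell type. Asns, Chac1, Trib3, Sp7, Dmp1, Gbp2, Gbp3, Gbp7, Irgm1 and Tgtp2 fall outside this rule and were chosen after their values were seen. Members and gene lists were chosen with earlier results of these data known. Promoter sequences are from RefSeq, GRCm38.p6, whereas the positions in the deposited files are on GRCm39, and coordinates were not converted. Some genes that the naming rule picks are not reported here.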

Additional observations from a re-analysis of the deposited data

How the results depend on the processing

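The number of genes called depended on the scaling and on the rule of size. With library size only, 9709 genes were higher and 2650 lower, 2824 and 452 of them by at least 1 on the log2 scale. With limma, log2(TPM + 0.1) gave 8932 higher and 1964 lower, with 286 lower by at least 1, and log2(TPM + 1) gave 8956 and 1960, with 181 lower by at least 1. A test against a 1.5-fold change called 1975 higher and 1690 lower. With a mean of 100 reads required, fewer genes were tested, and 681 were higher and 484 lower by at least 1. The other settings stayed within 1.5 times of the counts given: DESeq2 called 5198 higher and 5306 lower, library size without mitochondrial genes 7610 and 4128, and the 6 libraries alone 5739 and 5659. Leaving out each library in turn gave 5446 to 5527 genes higher and 5566 to 5631 lower, and 1619 to 1670 higher and 948 to 993 lower by at least 1. Replicate numbers are shared by the groups, but same-numbered libraries did not deviate together (r of 0.0063, 0.0397 and -0.0127, between -0.0295 and 0.0397 over all pairs), so that they share only a number. With the replicate block, 5666 genes were higher and 5735 lower, 1584 and 946 by at least 1. Of 98 list medians, 27 differed in sign over the settings. Of 3252 comparisons of the 193 genes named with an alternative, 3228 kept the direction and the side of the threshold, and in 24, over 20 genes, the gene kept its direction and no longer passed. Of these, 18 were in the test against a 1.5-fold change and 6 with limma on TPM, in Cenpf, Myh11 and Nlrc5. Depth limits the genes of cartilage, airway and lymphoid cells, of which several did not reach the filter.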

Other observations

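Genes of the daily clock were mixed. Of 19, 6 were higher and 12 lower in Tg-RKIP hearts, with a median log2 fold change of -0.26 that became 0.12 with library size only. Nr1d1, the repressor REV-ERB alpha, had 2643, 2763 and 2836 normalized reads in Tg-RKIP and 1477, 1388 and 1493 in FVB hearts, and its relative Nr1d2 fell by 0.65. The hour at which hearts were taken is not given in the sources used here. Of 24 genes of the peroxisome, 17 were lower and 1 higher, with a median of -0.37 that became 0.0038 with library size only. Ehhadh, an enzyme of peroxisomal beta-oxidation, and Crat, carnitine acetyltransferase, fell by 1.43 and 1.10. Of 27 heat shock and cytosolic chaperone genes, 16 were higher and 7 lower, with Hsp90aa1, an inducible chaperone, at 0.85 and Hspa1b, the stress-inducible Hsp70, at -0.66. Their summed TPM share was 1.29, 1.28 and 1.30% in Tg-RKIP and 0.842, 0.832 and 0.823% in FVB hearts. Of 22 hypoxia response genes 12 were higher and 7 lower. Genes of the proteasome, 16 of 33 higher and 12 lower, and of COPII and COPI transport, 12 of 30 higher and 14 lower, did not move as a block. The median of the transport genes, -0.05, became 0.33 with library size only.

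Some sparse cell types were also read. Of 10 conduction system genes tested, 7 were lower and 3 higher, with the adhesion protein Cntn2 at -1.61 and the sinoatrial factor Shox2 at 0.67. The median of this list, -0.25, became 0.12 with library size only. Of 11 platelet genes 3 did not pass the filter on low counts, and their summed TPM share was 0.00648, 0.00623 and 0.00552% in Tg-RKIP, 0.00278, 0.00277 and 0.00286% in FVB and 0.00373 to 0.00400% in the libraries labelled Tg-GRK2. Of 15 brown adipocyte genes tested, 8 were higher and 7 lower. Ucp1, the uncoupling protein that defines brown fat, had 361, 344 and 342 normalized reads in Tg-RKIP and 31.4, 47.3 and 43.9 in FVB hearts, a log2 fold change of 3.08. Among 11 thyroid and parathyroid genes 2 passed the filter on low counts, and among 11 thymus genes 3 passed it. On chromosome 18, 10.4% of 424 tested genes were lower by 1 log2 unit or more, against 6.12% of all genes, and the protocadherin genes described above lie there.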
